A study of Arabidopsis thaliana with 12 samples.

Results

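The comparison covers the 4 small RNA libraries of a study of 12 libraries, 2 from wild-type inflorescences of Arabidopsis thaliana and 2 from inflorescences of amiR-SEAP1 plants, chosen by their titles. Wild type is WT Col, and amiR-SEAP1 plants carry an artificial miRNA, an engineered small RNA directed at the SEAP1 transcript, in the same Columbia (Col) background. Both genotypes were untreated and grown under 16 h of light and 8 h of dark at 22 °C. The question posed by the design is how targeting SEAP1 alters the accumulation of miRNAs. The promoter behind the artificial miRNA, the number of transformed lines and the number of plants per library are not stated in the labels. Neither SEAP1 mRNA nor the artificial miRNA itself is analysed here, so the counts do not check the knockdown, and no miRNA is a defining marker by which the tissue label could be checked.

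Plant miRNAs are cut from hairpin transcripts by the Dicer-like enzyme DCL1, helped by the zinc-finger protein SERRATE, and are loaded into ARGONAUTE1, which cleaves or represses complementary mRNAs. Each hairpin gives a guide strand and a passenger strand, named by the arm (5p or 3p) they come from. In inflorescences a few deeply conserved families, which control organ polarity, meristem identity, auxin response and flowering, make up most of the miRNA pool. Copper-responsive miRNAs (miR397, miR398, miR408 and miR857) act in another setting: they are made when copper is scarce and lower the mRNAs of dispensable copper proteins.

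The libraries held 63545930 and 72285462 counts in wild type and 75681831 and 70235819 in amiR-SEAP1, with every line of a file included, a scale called all alignments below although unaligned reads are in it. Of the 427 mature miRNA names, 100 fell into 41 sets of relatives whose counts lay within 5% or 2 counts of each other in every library. All 7 miR166 3p entries, for instance, fell into the same set. Whether such entries are credited with the same reads or divide them was not tested, as the treatment of reads with several matches is not stated. If they divide them, keeping a single entry lowers the level of families with many copies. Keeping the most abundant entry of each set left 368 entries in 211 families, with 812083 and 731900 counts in wild type and 537387 and 414297 in amiR-SEAP1. The reduction is not complete: miR168a-5p and miR168b-5p, and miR858a and miR858b, missed the limit and both count toward their families. Nothing in the labels ties the libraries to separate plants, so the spread behind each p-value may be technical.

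miRNAs took up a smaller part of the small RNA libraries of amiR-SEAP1. With the most abundant entry kept of each near-equal set, wild type had 12779 and 10125 CPM on miRNAs (counts scaled to 1000000 of all alignments). The amiR-SEAP1 libraries had 7101 and 5899. The genotypes did not overlap, and their ratio was 0.568 (11452 ± 1877 against 6500 ± 850 CPM, n = 2, SD; p = 0.333 in an exact two-sided permutation test, which cannot go lower with 2 libraries a side). Of the 134 families with a mean of at least 10 counts, 89 (66.4%) were lower in both amiR-SEAP1 libraries than in both wild-type libraries on this scale, and 9 (6.72%) were higher in both. Whether other RNA took up more of the amiR-SEAP1 libraries, or fewer miRNAs were present, cannot be told apart from these counts, and the same holds for fewer cells of a type against less miRNA per cell.

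A few abundant families carried most of that difference. The miR165/miR166 family, which restrains the HD-ZIP III genes of organ polarity, stood at 3952 and 3428 CPM in wild type and at 2170 and 1659 CPM in amiR-SEAP1, and its difference was 35.8% of the net loss. miR170/miR171, which targets the HAIRY MERISTEM genes, went from 1578 and 1262 to 781 and 697 CPM (13.7% of the net loss), and miR858, which targets MYB regulators of flavonoid synthesis, from 962 and 629 to 227 and 252 CPM (11.2%). miR168, which targets ARGONAUTE1, added 8.13%. In edgeR's quasi-likelihood test with all alignments as library size, miR170/miR171 (adjusted p = 0.0411), miR858 (log2 change -1.73, adjusted p = 0.0272) and miR168 (log2 change -1.50, adjusted p = 0.0166) fell, and miR165/miR166 did not pass (log2 change -0.95, adjusted p = 0.0555). On that scale 34 of 136 tested families (25%) fell and 6 (4.41%) rose, and the median family changed by -0.65 on the log2 scale.

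**Figure D1:**
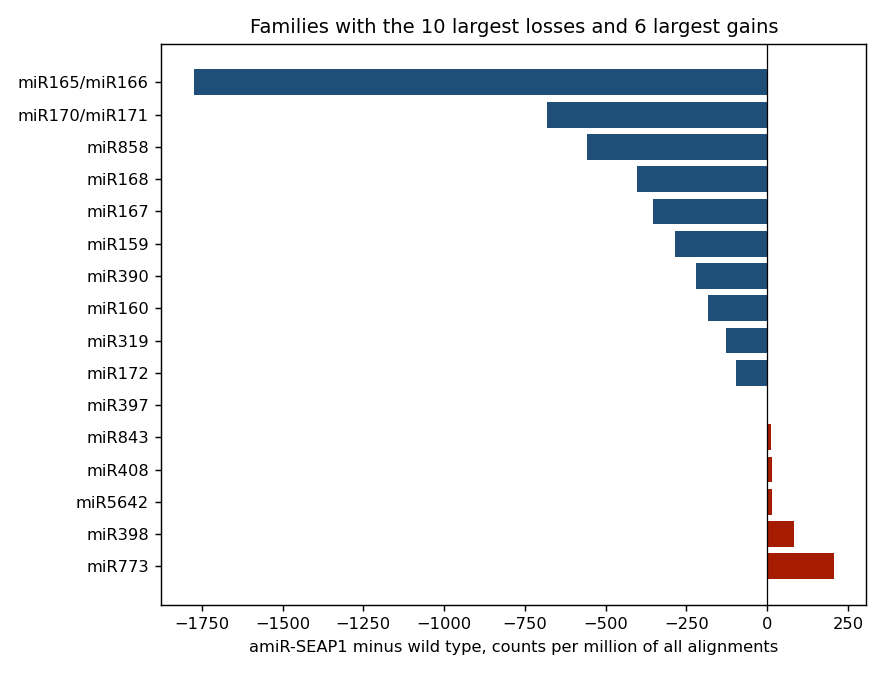
Difference between the mean of the 2 amiR-SEAP1 libraries and the mean of the 2 wild-type libraries for single families, in CPM of all alignments, with losses in blue and gains in red. The bar of miR165/miR166 is the longest at -1775 CPM, and the gains of miR773 (208 CPM) and miR398 (83.5 CPM) are small beside it.

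Within the pool, the order of the leading families was much the same in every library. miR165/miR166 ranked first in all 4, with 30.9% and 33.9% of the miRNA counts in wild type and 30.6% and 28.1% in amiR-SEAP1. These shares depend on keeping 1 entry of each near-equal set. With every entry as deposited, miR165/miR166 averaged 67.2% in wild type and 62.7% in amiR-SEAP1. miR170/miR171 followed in wild type with 12.3% and 12.5%, and came after another family in amiR-SEAP1 with 11.0% and 11.8%. The family that took its place differed between the amiR-SEAP1 libraries. It was miR167, which targets ARF6 and ARF8 of flower maturation, in replicate 1 (14.7%, against 8.66% in replicate 2 and 10.5% and 9.14% in wild type). In replicate 2 it was miR159, which targets GAMYB-like genes of the anther (11.9%, against 8.77% in replicate 1 and 7.76% and 8.88% in wild type). For both families the spread between the amiR-SEAP1 libraries was larger than the difference between genotypes (edgeR adjusted p = 0.808 and 0.692 with TMM scaling, which measures change relative to the other miRNAs).

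Below these, miR858 and miR168 had lower shares in amiR-SEAP1 that did not pass edgeR's test on the pool but passed DESeq2. miR858 made up 7.53% and 6.22% of the pool in wild type and 3.19% and 4.28% in amiR-SEAP1 (log2 change -0.99 ± 0.26, SE, edgeR adjusted p = 0.0873). miR168 made up 5.11% and 5.87% against 2.98% and 3.90% (-0.78 ± 0.24, adjusted p = 0.115). The genotypes do not overlap in either family. Of 134 families, 21 (15.7%) had lower shares in both amiR-SEAP1 libraries in this way and 36 (26.9%) had higher ones. With DESeq2 the adjusted p was 0.00677 for miR858 and 0.00889 for miR168, and over all alternatives it ran from 0.00117 to 0.398 and from 0.00889 to 0.379. miR390, which triggers the trans-acting siRNAs that restrain ARF3 and ARF4, held 3.47% and 4.31% against 3.10% and 3.74%, ranges that overlap.

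miR773 and miR398 were the families of the first 15 that moved up the most. miR773, whose targets include a DNA methyltransferase gene, held 0.366% and 0.300% of the pool in wild type and 4.87% and 2.49% in amiR-SEAP1, and rose by 3.43 ± 0.46 on the log2 scale (edgeR adjusted p = 0.00464). That took it from place 23 in both wild-type libraries to places 5 and 9. miR398, which targets the copper/zinc superoxide dismutase genes CSD1 and CSD2, held 1.08% and 0.930% in wild type and 1.91% and 4.47% in amiR-SEAP1, with no overlap and a wide spread between the amiR-SEAP1 libraries (log2 change 1.52 ± 0.35, adjusted p = 0.0573). This call turned on the filter for low counts: with families kept at a mean of at least 10 counts, edgeR gave miR398 an adjusted p of 0.0353, and DESeq2 gave 0.00651 (7.5e-07 to 0.194 over all alternatives). Without amiR-SEAP1 replicate 1 the log2 change of miR773 was 2.61, and without replicate 2 it was 3.90. The remaining families of the first 15 were miR160 (targets ARF10, ARF16 and ARF17), miR158, miR319 (TCP genes of the CIN type), miR172 (AP2-type genes), miR8175 and miR845 (a pollen miRNA directed at retrotransposons), each with 0.770% to 3.66% of the pool, and none passed (adjusted p from 0.431 to 0.997).

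**Figure D2:**
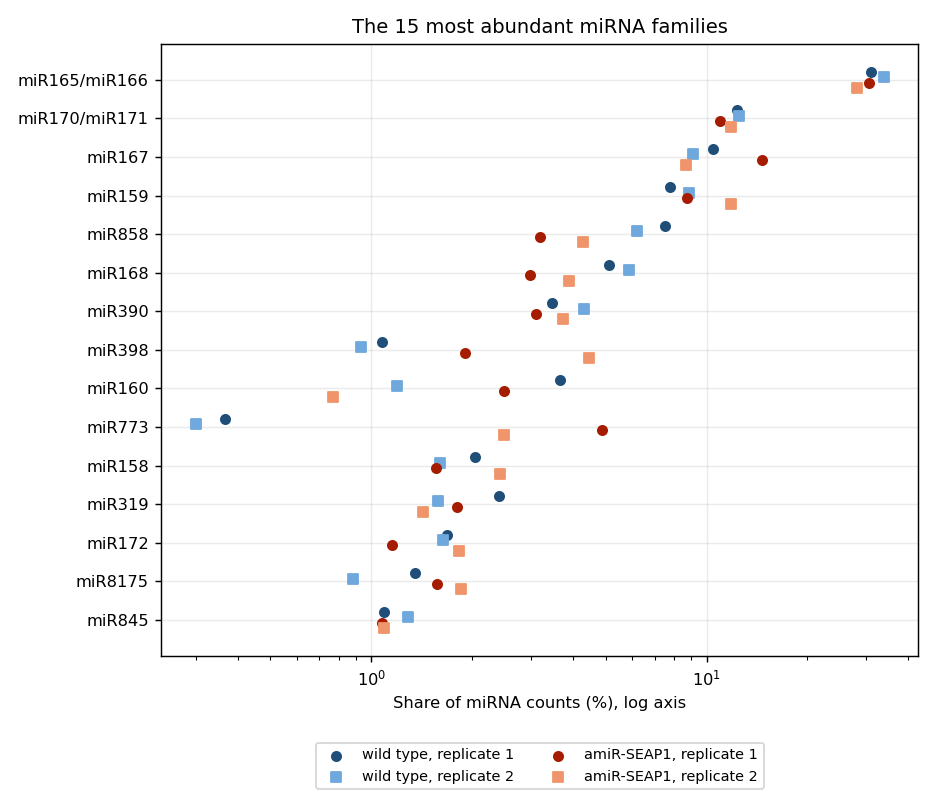
Share of the miRNA counts, in percent on a log axis, of the 15 families with the highest mean share, with 1 symbol per library (blue for wild type, red for amiR-SEAP1; circles for replicate 1, squares for replicate 2). Both red symbols of miR773, at 4.87% and 2.49%, lie far to the right of the blue ones, whereas for miR160 the circles lie to the right of the squares in both genotypes.

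The pool was uneven in both genotypes and slightly less so in amiR-SEAP1. With near-equal entries reduced, 3 families made up 50% of the miRNA counts in every library. To make up 90% it took 14 families in either library of wild type, against 15 and 16 in amiR-SEAP1. The effective number of families (the exponential of the Shannon entropy, which equals the number of families in a pool of equal shares) was 12.9 and 12.1 in wild type and 13.1 and 14.9 in amiR-SEAP1. With every entry as deposited it averaged 4.58 in wild type and 5.40 in amiR-SEAP1. Pielou's evenness, which is 1 in a pool of equal shares, was 0.484 and 0.472 against 0.487 and 0.511, or 0.478 ± 0.008 against 0.499 ± 0.017 (SD, n = 2; exact permutation p = 0.333, the smallest possible). Wild-type replicate 1 and amiR-SEAP1 replicate 1 differed by less than the 2 amiR-SEAP1 libraries did, and without amiR-SEAP1 replicate 2 the difference in evenness was 0.0094, against 0.021 with it.

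The first 10 families did not separate the genotypes: they held 82.7% and 83.2% of the pool in wild type and 83.5% and 80.1% in amiR-SEAP1. Fewer families had a count in amiR-SEAP1 (174 and 181) than in wild type (188 and 189). Thinned by calculation to 414297 counts, the depth of the shallowest library, the expected numbers were 181 and 182 in wild type and 172 and 181 in amiR-SEAP1, so at equal depth amiR-SEAP1 replicate 2 met wild type and replicate 1 lay below it. Setting the miR165/miR166 family aside left the evenness at 0.531 and 0.531 in wild type and at 0.534 and 0.555 in amiR-SEAP1.

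Libraries of a genotype shared slightly more of their order than libraries of different genotypes. Across the 134 ranked families, which share library and depth, Spearman's rho was 0.969 between the wild-type libraries, 0.981 between the amiR-SEAP1 libraries and 0.941 to 0.956 between genotypes. By share of the pool the picture was less clear. The wild-type libraries had 92.0% of their pools in common, but the amiR-SEAP1 libraries had 86.6%, less than the 87.4% that wild-type and amiR-SEAP1 replicate 1 had in common.

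The change of ranks was modest for most families and large for a few. By mean rank, the median family moved by 4.38 places between the genotypes. Averaging 2 libraries tends to shrink this value, so it is not like a gap between single libraries. The median gap between single libraries was 3.5 places within wild type and 3.25 within amiR-SEAP1. Between libraries of different genotypes it was 4.75 to 6.75. For 51 of 134 families the move in mean rank between genotypes was larger than both gaps between replicates. Ranks of the genotypes did not overlap in 61 families (45.5%): 21 (15.7%) stood nearer the top in both amiR-SEAP1 libraries and 40 (29.9%) nearer the bottom. Shares gave the opposite balance, with 36 families (26.9%) higher and 21 (15.7%) lower in amiR-SEAP1. A rank also moves when other families pass by: miR2939 lost 4 places, although it held 0.0256% and 0.0335% of the pool in wild type and 0.0257% and 0.0374% in amiR-SEAP1.

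The families that climbed furthest came from the lower part of the pool. miR843 stood at place 81 in both wild-type libraries and at places 28 and 29 in amiR-SEAP1, a gain of 52.5 places. The laccase-targeting miR397 went from places 95 and 101.5 to 49 and 47. Among families with a mean of at least 100 counts, miR773 gained 16 places, miR408 8.5, miR398 7.5, miR823 (which targets the DNA methyltransferase gene CMT3) 7.25, miR5642 6, miR399 (which targets PHO2 of phosphate homeostasis) and miR169 (which targets NF-YA genes) 5.5 each and miR5024 4. For miR169 and miR5024 the direction turned with the most abundant entry in place of the family sum. Their edgeR log2 changes were then -0.86 and -0.26, against 0.60 and 0.58 with the sum. Of these 10, miR823, miR5642, miR399, miR169, miR5024 and miR398 did not pass edgeR's test on the pool (adjusted p from 0.0573 to 0.167), and of these miR398 (as given above) and miR5642 passed DESeq2 (adjusted p = 0.0151 for miR5642, 2.8e-04 to 0.381 over its alternatives).

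Among families with a mean of at least 100 counts, the largest loss of rank was 13 places. Below that limit, miR846 lost 25 places, miR859 24.75 and miR867 23.5 (chosen after their values were seen). miR822, which targets genes of DC1-domain proteins, stood at places 43 and 41 in wild type and at 55.5 and 54.5 in amiR-SEAP1, a loss of 13 places, with 0.0381% and 0.0506% of the pool against 0.0251% and 0.0287%. miR848 also lost 13 places, from 52 and 55 to 66 and 67. miR396, which targets the growth regulator genes GRF, went from places 15 and 11 to 19 and 20, with 1.05% and 1.36% of the pool against 0.740% and 0.834%. miR5645, miR829, miR856, miR163 (which targets methyltransferase genes), miR172 and miR845 lost 3.5 to 7.75 places. None of the 10 families named for a loss of rank passed edgeR's test on the pool scale (adjusted p from 0.0873 to 0.990), whereas miR396, miR822 and miR829 passed DESeq2.

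**Figure D3:**
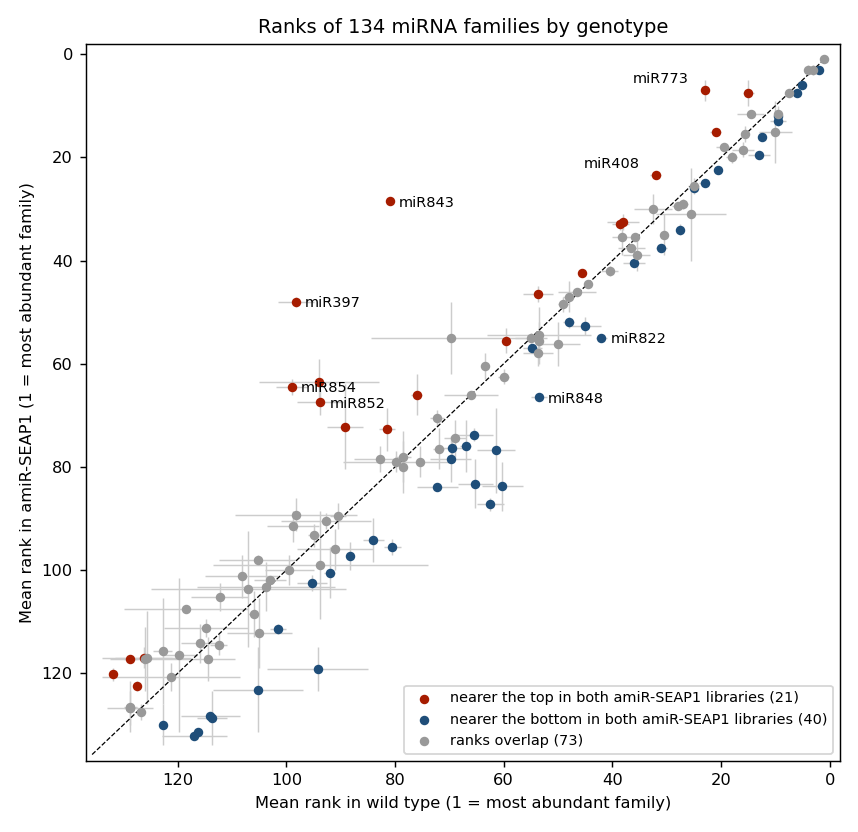
Mean rank of the 134 ranked families in wild type (horizontal) and in amiR-SEAP1 (vertical), where place 1 is the most abundant family, with grey lines that span the 2 libraries of a genotype. Most families lie near the dashed line of equal rank, and miR843 (81 to 28.5) and miR397 (98.25 to 48) lie furthest above it.

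Relative to the other miRNAs, 12 of 242 tested entries (4.96%) rose and 1 (0.413%) fell in edgeR's quasi-likelihood test at an FDR of 0.05. Among family sums, 7 of 136 (5.15%) rose and 0 (0%) fell, and before adjustment p was under 0.05 for 17 families with an increase and 10 with a decrease. DESeq2 called 10 families higher and 5 lower. Of the 12 entries that rose, 5 (miR397b, miR398b-5p, miR854a, miR854d and miR857) met the limit of the low-count filter in both amiR-SEAP1 libraries but not in both wild-type libraries, and so did 1 of the 7 families, miR857. Entries and families kept in that way had to differ, and without them 7 entries and 6 families rose. Fold changes with all alignments as library size lie lower by 0.70 (families) and 0.72 (entries) on the log2 scale at the median. With that scale, 12 entries (4.96%) rose and 65 (26.9%) fell. With any 1 library left out edgeR called 0 entries, although 22 to 26 were higher and 9 to 15 lower at an unadjusted p under 0.05. A genotype then has 1 library, which is assumed to vary like those of the other genotype, the only source of the spread. The 13 called entries kept their direction in all 4 of these fits. That is no support, as their genotypes do not overlap and leaving out 1 library could hardly reverse it. The log2 changes were 4.27 to 4.34 for miR843, 1.95 to 2.39 for miR397a and -1.81 to -1.41 for miR390b-3p. The widest ranges were those of miR857 (2.65 to 4.12) and miR773a (2.66 to 3.92). The families miR843, miR397, miR773 and miR854 passed with any library left out, but miR854 did not pass with the most abundant entry of each family in place of the sum (log2 change 1.33 against 1.89, adjusted p = 0.110, 1.7e-09 to 0.110 over its alternatives).

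Of the 4 tested copper-responsive families, miR397 (log2 change 2.73) and miR408 (1.96) rose, and 0 fell. Over all 136 tested families, 7 (5.15%) rose and 0 (0%) fell. miR398 had the values given above. miR857 passed too, but with 1 and 3 counts in wild type it met the low-count filter through amiR-SEAP1 alone, so it is left out of the count. The median over all 136 families was 0.05. Without amiR-SEAP1 replicate 1 the edgeR adjusted p was 0.0706 for the family miR408 and 0.238 for miR857, and without amiR-SEAP1 replicate 2 it was 0.152 for miR857. miR397b was counted 9 and 5 times in wild type and 75 and 78 times in amiR-SEAP1. Its log2 change was 4.04 ± 0.37 (SE), but it met the low-count filter in the amiR-SEAP1 libraries only, so its p is not used here. miR397a, with 35 and 33 against 88 and 113 counts, met the filter in every library and rose by 2.18 ± 0.28 (adjusted p = 0.0166).

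The other copper miRNAs covered a wide range of levels. miR408-3p, the strand that targets plantacyanin and laccase mRNAs, stood at 7.77 and 4.63 CPM of all alignments in wild type and at 17.5 and 12.9 in amiR-SEAP1 (log2 change 2.04 ± 0.32, adjusted p = 0.0206). Its partner strand miR408-5p went from 5.46 and 3.46 to 8.09 and 11.2 CPM (1.85 ± 0.29, adjusted p = 0.0206), so both arms rose. miR398b-5p was counted 11 and 9 times in wild type and 35 and 30 times in amiR-SEAP1. It met the low-count filter in the amiR-SEAP1 libraries only, so its p is not used here. The guide strand miR398b-3p, with 8734 and 6781 against 10204 and 18459 counts, did not pass (log2 change 1.51 ± 0.38, adjusted p = 0.0968). miR857, which targets the laccase gene LAC7, had 1 and 3 counts in wild type and 12 and 14 in amiR-SEAP1. With the libraries of a genotype added together, its share of the pool was 10.5 times higher in amiR-SEAP1. The 95% exact interval of 3.66 to 41.6 holds counting error only, and libraries of a genotype differed by more than that. As miR857 also met the low-count filter through amiR-SEAP1 alone, the interval is not a test of the genotypes. The loci of miR857 (AT4G13554) and miR397b (AT4G13555) are neighbours in the RefSeq gene table of TAIR10.1.

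miR843 had the largest increase and the smallest SE of the 13 called entries. It stood at 1.04 and 0.941 CPM of all alignments in wild type and at 11.93 and 11.86 in amiR-SEAP1, from 66 and 68 against 903 and 833 counts. The log2 change was 4.31 ± 0.25 relative to the pool (adjusted p = 5.4e-04) and 3.59 relative to all alignments (adjusted p = 1.2e-06). Its locus, AT3G48057, has SUO as its nearest listed neighbour on one side, a gene required for translational repression by miRNAs. miR773a stood at 46.8 and 30.4 CPM in wild type and at 346 and 147 CPM in amiR-SEAP1, and rose by 3.43 ± 0.50 (adjusted p = 0.0206).

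The remaining entries that rose were of low abundance. miR854a was counted 10 and 13 times in wild type and 33 and 28 times in amiR-SEAP1, and miR854d 7 and 9 times against 27 and 30 times. Their log2 changes were 2.01 and 2.43. In wild type, 1 library met the low-count filter for miR854a and 0 for miR854d, so their p-values are not used here. miR854 is encoded in Athila retrotransposons, whose copies share sequence, so the assignment of its reads is uncertain. miR5024-3p was counted 24 and 34 times against 66 and 78 times (log2 change 1.92, adjusted p = 0.0233). Its partner strand miR5024-5p was not called relative to the other miRNAs. That strand was among the 65 of 242 entries (26.9%) that fell relative to all alignments. miR852, with 54 and 42 against 75 and 83 counts (1.34 ± 0.27, adjusted p = 0.0441), did not pass relative to all alignments (adjusted p = 0.207).

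**Figure D4:**
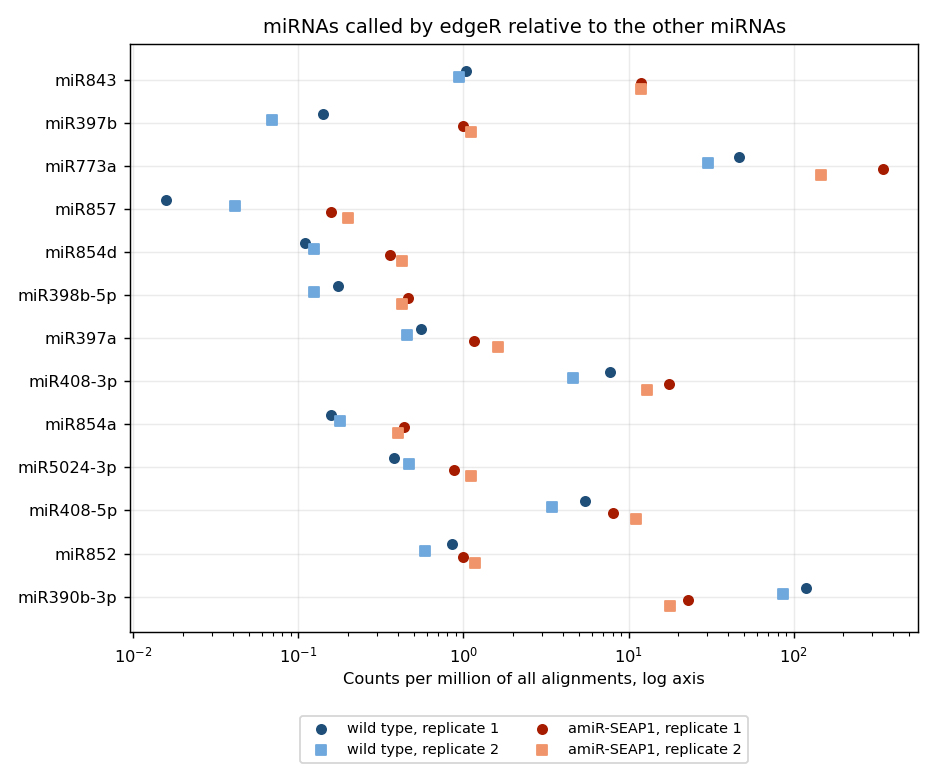
Level of the 13 miRNA entries called by edgeR relative to the other miRNAs, in CPM of all alignments on a log axis, with 1 symbol per library as in the plot of family shares. Symbols of the genotypes do not overlap in any of the 13, and miR390b-3p, at 119 and 86.7 CPM in wild type and 22.9 and 17.7 CPM in amiR-SEAP1, is the one entry that is lower.

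The 1 entry that fell was a passenger strand. miR390b-3p, the strand opposite the miR390 guide, had 7573 and 6270 counts in wild type and 1736 and 1245 in amiR-SEAP1, and fell by 1.60 ± 0.28 on the log2 scale (adjusted p = 0.0254). The 3p strand of the sister locus, miR390a-3p, stood at 9542 and 8305 against 3708 and 3406 counts (log2 change -0.71 ± 0.25, adjusted p = 0.183). The guide, miR390a-5p, which miR390b-5p shares, stood at 11047 and 17001 against 11215 and 10856 counts (0.27 ± 0.31, adjusted p = 0.720). The 3p strands made up 60.8% and 46.2% of the miR390 counts in wild type and 32.7% and 30.0% in amiR-SEAP1. These shares do not overlap, and the wild-type libraries lie further apart than the amiR-SEAP1 libraries.

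Families grouped by role otherwise showed few calls. Relative to the pool, edgeR called 7 of all 136 tested families (5.15%) higher and 0 (0%) lower. Beside those shares, 0 calls on the pool scale do not set lists as short as these apart from the other families. All 14 families that regulate development, from miR156/miR157 to miR396, were tested, and 0 rose and 0 fell relative to the pool in edgeR's test (median log2 change -0.23, range -0.70 to 0.60), and miR396 fell with DESeq2 (adjusted p = 0.0373, 0.0166 to 0.468 over its alternatives). With all alignments as library size, on which 25% of all tested families fell, 7 of the 14 fell. They held 76.2% and 77.0% of the pool in wild type and 76.5% and 71.5% in amiR-SEAP1. Of 4 families aimed at the miRNA machinery itself (miR162, miR168, miR403 and miR838), 0 changed on the pool scale in edgeR's test and 1, miR168, fell relative to all alignments, the same 25% as over all tested families. Of the 3 tested families of sulphate and phosphate supply, 0 passed, with log2 changes of 0.83 (miR399), 0.88 (miR395) and 1.03 (miR827, adjusted p = 0.0991). With the replicate number as a block, edgeR called all 3 higher, beside 18 of all 136 families (13.2%). Of the 5 tested families that trigger secondary siRNAs, 0 passed on the pool scale (median -0.10) and 2 fell relative to all alignments, again beside 25% of all tested families.

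Some families differed more between the libraries of a genotype than between genotypes. miR394, which targets the F-box gene LCR of the shoot meristem, held 0.634% of the pool in wild-type replicate 1, 0.0887% in wild-type replicate 2, 0.505% in amiR-SEAP1 replicate 1 and 0.0760% in amiR-SEAP1 replicate 2. miR160 held 3.66%, 1.20%, 2.49% and 0.770% in the same order. In both families the libraries numbered 1 are high and those numbered 2 are low in either genotype. miR851 went the other way, with 0.0701% and 0.144% in wild type and 0.0956% and 0.259% in amiR-SEAP1. Of 63 families with a mean of at least 100 counts, these 3 differed at least 2-fold between replicate numbers in the same direction in both genotypes. The labels do not say what a replicate number marks.

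**Figure D5:**
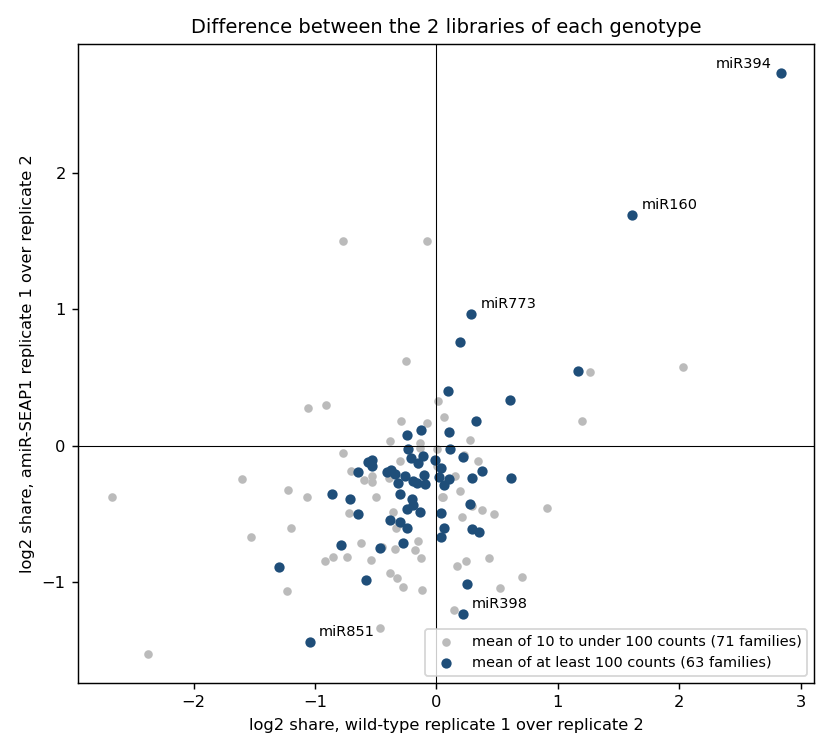
The log2 ratio of the share in replicate 1 to that in replicate 2, in wild type (horizontal) and in amiR-SEAP1 (vertical), for 134 families, where blue points have a mean of at least 100 counts. miR394 (2.84 and 2.73) and miR160 (1.61 and 1.70) lie far out in the upper right corner, and miR398 (0.22 and -1.23) differs more between the libraries of amiR-SEAP1 than of wild type.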

How the data were processed

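The authors deposited raw counts per mature miRNA for each library, followed by 5 summary lines, which held 96.6% to 98.5% of a file and were used for totals only. HISAT2 and TAIR10 appear in the submitters' processing notes without a version. For the counter, its annotation and reads with several matches, the method is not given in the sources used here. Per the labels' protocols, each library started from 1 µg of total RNA. The members and lists were chosen with earlier results of these data known.

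Entries of 1 family and arm with near-equal counts were reduced to the most abundant. Shares, ranks (families with a mean of at least 10 counts) and evenness were computed per library. Counts were tested with edgeR 4.0.16 in R 4.3.3 (quasi-likelihood, TMM, filterByExpr, Benjamini-Hochberg, FDR 0.05), a procedure first tested on simulated data. SE is the log2 change over the root of the F statistic. DESeq2 1.42.0, other scalings and filters and left-out libraries were alternatives. Libraries of a genotype differed beyond counting error (chi-square per degree of freedom 144 and 202), so neither pair is 1 library deposited in duplicate, which does not show separate plants. Named are the 15 most abundant families, up to 10 called increases and 10 decreases above 10 CPM of the pool (miR852 and miR408-5p, the other called entries, were added after seeing their values), and the 10 largest gains and losses of rank at a mean of at least 100 counts without overlap. miR394 and miR851 were chosen after their values were seen. The planned analysis by mature length and first base, and the reduction by identical sequence, were not run because mature sequences were not used here.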

Additional observations from a re-analysis of the deposited data

How the results depend on the processing

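The difference in the miRNA share of all alignments, in Pielou's evenness, in the effective number of families and in the share of miR165/miR166 (or of the first family left without it) kept its direction with every entry as deposited, a wider tolerance for shared reads (10% or 5 counts) and without miR165/miR166. The same held with any 1 library left out, but the genotypes did not overlap in these measures, so that outcome was fixed in advance. The levels themselves depended on the reduction. With every entry as deposited, the mean miRNA share was 31130 CPM in wild type and 16760 CPM in amiR-SEAP1, and the mean evenness was 0.288 and 0.319. The share of the first 10 families turned from -1.11 to 0.394 percentage points with the most abundant entry of each family. With DESeq2, 17 entries rose and 5 fell, and 10 families rose and 5 fell; the families it added were miR398, miR5642 and miR8176 (higher) and miR168, miR396, miR822, miR829 and miR858 (lower). The filter of a mean of at least 10 counts added miR398 and left out miR857. With all alignments as library size, 65 entries and 34 families fell. Upper quartile scaling left 4 families that rose, without miR852, miR854 and miR857, and the most abundant entry of each family lost miR854; RLE scaling and the wider tolerance lost miR852. Same-numbered libraries of the genotypes share only a number, and their differences correlated across 134 families (r = 0.447). With the replicate number as a block, 27 entries rose and 14 fell, and 18 families rose and 11 fell, and the 13 entries and 7 families called without it were kept. Among the families it added were miR398 (adjusted p = 7.5e-07), miR858 (0.00117) and miR168 (0.0130). Leaving out any 1 library gave 0 entries that rose or fell (counts at an unadjusted p are given with the calls above), 5 to 15 families that rose (14 and 15 without wild-type replicate 1 and 2) and 0 to 7 that fell (1 and 7 without those libraries); miR852 and miR857 were lost without amiR-SEAP1 replicate 1 or 2, and miR408 without amiR-SEAP1 replicate 1. The cause was not tested. The number of families whose ranks do not overlap was 29 of 63 at a mean of at least 100 counts and 91 to 98 with 1 library left out, where a genotype with 1 library overlaps less easily. Reduction by identical mature sequence was not run. With 2 libraries per genotype and some called entries at under 35 counts, small changes of rare miRNAs were not detectable.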

Other observations

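miR161, which triggers secondary siRNAs from pentatricopeptide repeat genes, was all but missing from the counts. miR161.1 was listed at 0 in all 4 libraries, and miR161.2 at 1 count in wild-type replicate 1 and at 0 in the others. The products of this locus overlap on 1 precursor. The summary line for ambiguous reads held 39986 and 48821 counts in wild type and 21519 and 32562 in amiR-SEAP1, and whether miR161 reads are among them was not tested.

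A pair of Brassicaceae families outside the named sets lay lower in amiR-SEAP1 without passing edgeR's test on the pool, and were chosen after their values were seen. miR846, which targets genes of jacalin-type lectins, held 0.00702% and 0.00506% of the pool in wild type and 0.00205% and 0.00290% in amiR-SEAP1 (log2 change -1.40, adjusted p = 0.0873). miR859 held 0.0160% and 0.0142% against 0.00577% and 0.0106% (log2 change -1.02, adjusted p = 0.0940). Both fell relative to all alignments (adjusted p = 0.0294 for each).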
